A study of Mus musculus with 6 samples.

Results

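T cells that carry more than 1 productive T cell receptor beta chain were described in the spleen of a wild-type C57BL/6JRj mouse (WT) and of a 564Igi mouse. The 564Igi mouse was heterozygous for the knock-in alleles Igktm1(Igk564)Tik and Ightm1(Igh564)Tik, which carry the rearranged light and heavy chain genes of an autoreactive antibody, on a B6.129S4(Cg) background. These are antibody loci, and the labels name no change to the T cell receptor loci of either mouse. Each group was 1 animal, of an age not given in the sources used here, so mouse and genotype cannot be told apart and no difference between them was tested. Erythroid cells had been removed from both cell suspensions with Ter-119 before capture in droplets. Barcodes counted as T cells were those called as cells in the T cell receptor table of their mouse and not so called in its B cell receptor table. A chain was a high-confidence, productive contig supported by at least 2 unique molecular identifiers (UMIs, which mark single captured RNA molecules), and 2 chains were distinct when their CDR3 nucleotide sequences differed. Cells with 2 or more distinct beta chains are called double-beta cells here, and those with exactly 1 are called single-beta cells. By this rule 431 of 7444 T cells with a chain were double-beta cells, 143 of 3097 in WT and 288 of 4347 in 564Igi, and 6703 were single-beta cells, 2825 and 3878. The number of beta chains chose these cells and is no result. The cells are T cells by their receptor contigs alone, since expression of other T cell genes was not analysed here.

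The T cell receptor is a pair of an alpha and a beta chain, each joined from gene segments during development in the thymus. The beta locus (Trb) rearranges first, on either of its 2 chromosomal copies. A productive beta chain that pairs with the surrogate pre-T alpha chain signals the cell to stop further V to DJ joining, so that most mature T cells express a beta chain from 1 copy only, which is called allelic exclusion. The alpha locus has no such stop, and T cells with 2 alpha rearrangements are common. A barcode with 2 productive betas can therefore be a cell in which both copies were joined in frame (allelic inclusion) or a droplet that held 2 T cells (a doublet). These 2 need not be the only sources of a second beta, and the part of any source in the values below was not tested.

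The T cell tables held 86409 UMIs in WT and 114433 in 564Igi. The mice shared 23 T cell barcodes, 1 of them that of a double-beta cell of WT and 1 that of a double-beta cell of 564Igi, and no chain of a double-beta cell had both its barcode and its CDR3 in the other mouse. Shares are followed by their exact 95% binomial interval and differences of shares by Newcombe's interval. They cover counting error only, since cells of 1 mouse are not replicates.

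Double-beta cells made up 4.82% (4.08 to 5.65) of the 2968 WT T cells with a beta chain. In 564Igi the share was 6.91% (6.16 to 7.73) of 4166. The share was thus 2.10 points (0.973 to 3.20) higher in the 564Igi mouse, an interval of counting error that does not include 0. The size of this difference rested on which barcodes were kept. When every barcode with any contig in the B cell table was left out, the shares were 4.44% of 1892 cells in WT and 5.28% of 1819 in 564Igi, and the difference of 0.838 points had an interval (-0.584 to 2.27) that includes 0. Counting only cells whose second beta had at least 50% of the UMIs of the first gave a difference of 0.985 points. Productive immunoglobulin contigs were read in 2 of the WT and 61 of the 564Igi double-beta cells, 1.40% (0.170 to 4.96) and 21.2% (16.6 to 26.4). The WT single-beta cells held them in 1.42% (1.01 to 1.92) and the 564Igi ones in 15.1% (13.97 to 16.3), so they were more frequent in 564Igi in both classes. Within 564Igi they were more frequent in double-beta than in single-beta cells, with intervals that do not overlap. In WT they were about as frequent in both classes. Their part in the difference between the mice was not tested.

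Nearly all members had exactly 2 betas, 140 of 143 in WT and 275 of 288 in 564Igi. The remaining 3 and 13 cells had 3, which is more than the 2 copies of the locus in 1 diploid cell. Together with cells that had more than 2 alphas, 11 WT members, 7.69% (3.90 to 13.3), and 26 564Igi members, 9.03% (5.98 to 12.9), exceeded 2 chains of a kind. More than 2 alphas alone were found in 8 WT members, 5.59% (2.45 to 10.7), and 17 564Igi members, 5.90% (3.48 to 9.28). Single-beta cells had them in 2 of 2825 and 7 of 3878, 0.0708% and 0.181%, and the alphas of 2 single-beta cells, added over all pairs of a mouse, exceeded 2 in 13.8% and 13.3%.

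The betas of 1 cell were separate rearrangements and not copies of each other, which the CDR3 sequences show directly. The first set gives the cells with the most UMIs on the second beta among those with exactly 2 betas and 1 alpha, 3 in each mouse. The first and second beta had 43 and 31 UMIs in WT cell 1, 30 and 21 in WT cell 2, 32 and 20 in WT cell 3, 39 and 25 in 564Igi cell 1 and 22 and 21 in 564Igi cell 2. The third 564Igi cell is one of 3 cells with the same chains and is shown with the recurring pairs. Lower case marks the stretches at either end that both betas of the cell share, and capitals mark all bases between them, where the 2 sequences part.
WT cell 1, first beta, TRBV17 to TRBJ2-5: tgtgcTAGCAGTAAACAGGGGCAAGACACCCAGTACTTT
WT cell 1, second beta, TRBV12-2 to TRBJ2-1: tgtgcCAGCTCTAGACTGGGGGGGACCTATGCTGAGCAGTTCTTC
WT cell 2, first beta, TRBV15 to TRBJ2-5: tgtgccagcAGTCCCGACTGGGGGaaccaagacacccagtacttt
WT cell 2, second beta, TRBV12-2 to TRBJ2-5: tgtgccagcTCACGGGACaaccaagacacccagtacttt
WT cell 3, first beta, TRBV15 to TRBJ1-6: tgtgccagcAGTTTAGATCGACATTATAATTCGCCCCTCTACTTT
WT cell 3, second beta, TRBV12-2+TRBV13-2 to TRBJ2-7: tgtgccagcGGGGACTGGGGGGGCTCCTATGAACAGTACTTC
564Igi cell 1, first beta, TRBV15 to TRBJ2-4: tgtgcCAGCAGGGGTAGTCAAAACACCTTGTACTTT
564Igi cell 1, second beta, TRBV16 to TRBJ1-2: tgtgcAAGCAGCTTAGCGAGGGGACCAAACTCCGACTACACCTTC
564Igi cell 2, first beta, TRBV16 to TRBJ2-7: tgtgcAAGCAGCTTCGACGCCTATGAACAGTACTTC
564Igi cell 2, second beta, TRBV15 to TRBJ2-3: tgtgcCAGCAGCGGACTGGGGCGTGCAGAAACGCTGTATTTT

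Cells with 2 betas and 2 alphas held equally distinct pairs. WT cell 4 had 36 and 34 UMIs on its betas and 17 and 9 on its alphas, and 564Igi cell 4 had 21 and 15 on its betas and 9 and 6 on its alphas. Both betas of 564Igi cell 4 used TRBJ2-5 and shared their last 18 bases, as those of WT cell 2 shared TRBJ2-5 and their last 21 bases.
WT cell 4, first beta, TRBV3 to TRBJ1-1: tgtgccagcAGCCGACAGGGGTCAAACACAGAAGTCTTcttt
WT cell 4, second beta, TRBV12-2+TRBV13-2 to TRBJ2-5: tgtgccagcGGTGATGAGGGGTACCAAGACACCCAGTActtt
564Igi cell 4, first beta, TRBV13-1 to TRBJ2-5: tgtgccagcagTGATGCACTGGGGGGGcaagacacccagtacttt
564Igi cell 4, second beta, TRBV10 to TRBJ2-5: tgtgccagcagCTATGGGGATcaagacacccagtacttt

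The 2 leading betas had CDR3 regions of equal length in 25 WT and 67 564Igi cells. These differed at 13 to 30 bases in WT and at 5 to 32 in 564Igi, with a median of 20 in each. Pairs that differed by 1 to 3 bases numbered 0 in both mice, where 3 cells would make a share of 2.10% in WT and 1.04% in 564Igi. The exact intervals of these counts reach up to 2.55% and 1.27%. CDR3 length had a median of 14 amino acids in betas of double-beta cells and of single-beta cells in both mice, with quartiles of 13 and 15 throughout.

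The rule does not use the number of alpha chains, but it does need UMIs on a second beta. Single-beta cells with more beta UMIs had 2 or more alphas more often, as given below by bins of UMIs. Double-beta cells carried 2 or more alphas more often than single-beta cells in both mice. The share was 26.6% (19.5 to 34.6) against 9.95% (8.87 to 11.1) in WT, a difference of 16.6 points (9.50 to 24.7). It was 33.0% (27.6 to 38.7) against 9.39% (8.49 to 10.3) in 564Igi, a difference of 23.6 points (18.1 to 29.4). As a reference, the alphas of any 2 single-beta cells of the same mouse were added, over all such pairs, which gave 2 or more alphas in 60.4% of pairs in WT and 61.2% in 564Igi. Double-beta cells thus lay between single cells and pairs of cells. Exactly 1 alpha was the most frequent state, with 78 WT members, 54.5% (46.01 to 62.9), and 152 564Igi members, 52.8% (46.8 to 58.7), against 64.4% and 65.8% of single-beta cells and 33.02% and 32.7% of pairs of cells. No alpha was found in 18.9% (12.8 to 26.3) and 14.2% (10.4 to 18.8) of members, against 25.6% and 24.8% of single-beta cells and 6.57% and 6.17% of pairs. The members of the 2 mice differed by 6.41 points in the share with 2 or more alphas, with an interval (-3.27 to 15.5) that includes 0.

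**Figure D1:**
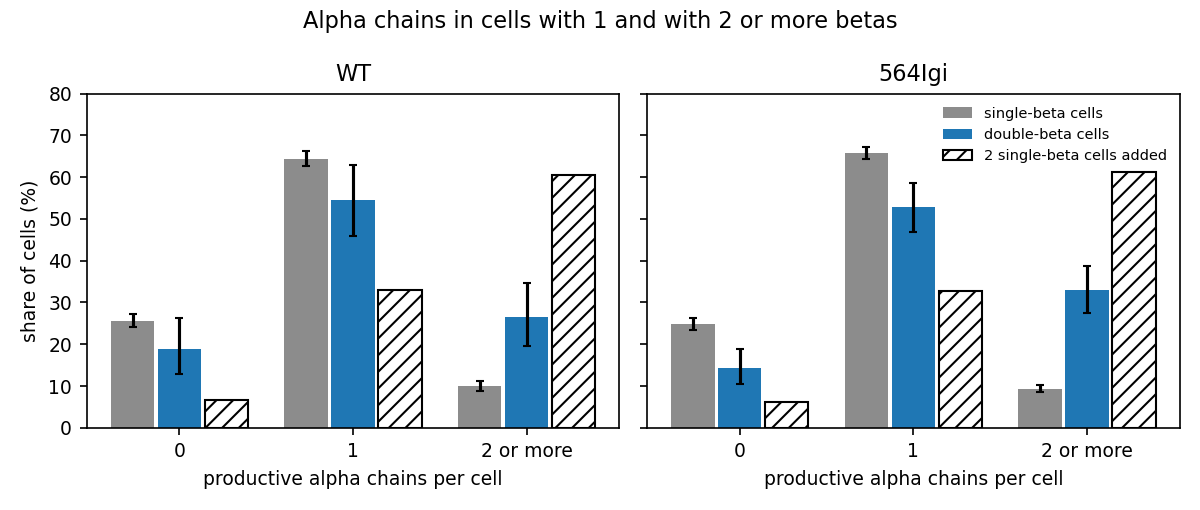
Share of cells, in percent, with 0, 1, and 2 or more productive alpha chains in WT (left) and 564Igi (right). Grey bars are single-beta cells and blue bars double-beta cells, with exact 95% binomial intervals, and hatched bars give the share over all pairs of single-beta cells with their alphas added. For 2 or more alphas the blue bars, at 26.6% and 33.0%, lie between the grey and the hatched bars.

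Read the other way, the share of double-beta cells was highest among cells with several alphas. It was 3.60% (2.38 to 5.19) of WT beta-bearing cells with no alpha, 4.11% (3.26 to 5.10) with 1, 9.71% (6.65 to 13.6) with 2, and 8 of 10 cells with 3 or more. In 564Igi it was 4.08% (2.95 to 5.50), 5.62% (4.78 to 6.56), 17.9% (14.4 to 21.9), and 17 of 24. The alpha counts depended on the UMI minimum. At a minimum of 5 UMIs the share with 2 or more alphas was 10.5% of double-beta and 3.21% of single-beta cells in WT, and 6.88% and 3.04% in 564Igi. With 1 UMI and no confidence flag required, in an alternative added after the data had been seen, the share was 34.4% of double-beta and 12.96% of single-beta cells in WT, and 37.4% and 12.6% in 564Igi.

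Receptor RNA was more abundant in double-beta cells, in part by construction, since a second beta adds its own UMIs. Alpha and beta UMIs together had a median of 26 (quartiles 20 and 34) in WT members against 15 (10 and 22) in single-beta cells, 1.73 times as many. In 564Igi the medians were 25 (18.8 and 33) and 14 (9 and 21), 1.79 times as many. The sum over 2 single-beta cells had a median of 31 in WT and 30 in 564Igi, so double-beta cells lay below it. The first beta had a median of 12 UMIs in members of both mice, and the one beta of single-beta cells 11 in WT and 10 in 564Igi. As the first beta is the larger of at least 2, these medians say nothing of an excess beyond the second. Alpha UMIs had a median of 5 in members of both mice, against 3 in single-beta cells and 8 in the sum of 2 cells. Among cells with exactly 1 alpha that alpha had a median of 5 UMIs in WT members and 4 in single-beta cells, and 4 and 4 in 564Igi.

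**Figure D2:**
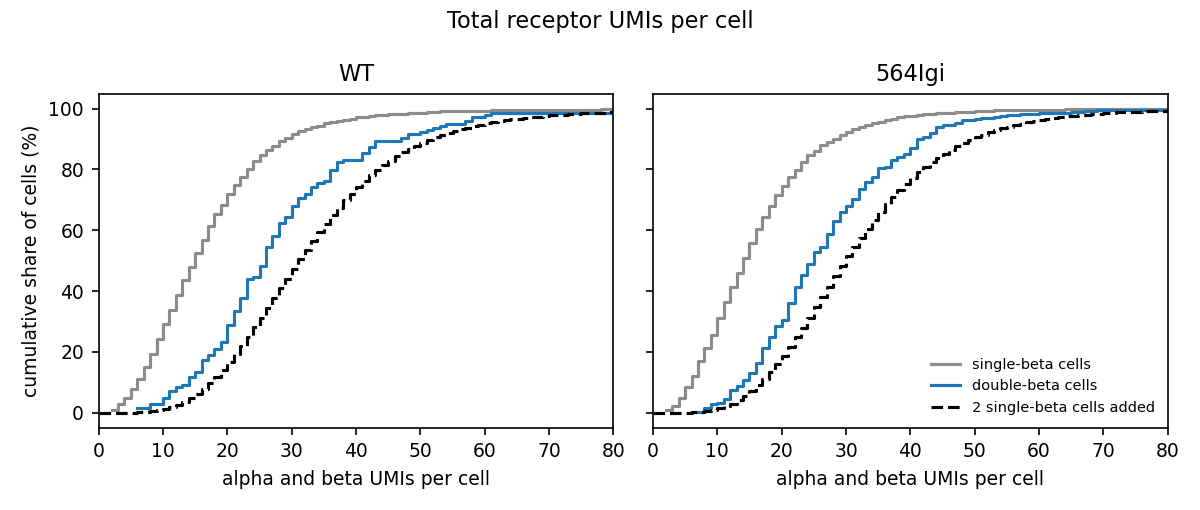
Cumulative share of cells, in percent, by alpha and beta UMIs per cell in WT (left) and 564Igi (right), for single-beta cells (grey), double-beta cells (blue) and the sum of any 2 single-beta cells (dashed). The axis stops at 80 UMIs, and the blue curve lies between the others, with a median of 26 in WT and 25 in 564Igi.

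Cells were also grouped by the UMIs of their first beta. The share of double-beta cells was 1.39% (0.560 to 2.84) of WT cells whose first beta had 2 to 5 UMIs, 5.09% (3.78 to 6.69) at 6 to 10, 5.68% (4.41 to 7.18) at 11 to 20, and 6.10% (3.91 to 9.01) above. In 564Igi it was 2% (1.15 to 3.22), 7.21% (5.89 to 8.73), 9.06% (7.66 to 10.6) and 7.46% (5.31 to 10.1). The rule itself limits the share in the first bin, since a second beta needs at least 2 UMIs and no more than the first. How much of the low share this accounts for was not tested. Above 5 UMIs the intervals of the bins overlapped in both mice. In the same order of bins, 28.6%, 31.25%, 26.2% and 17.4% of WT double-beta cells had 2 or more alphas. Of WT single-beta cells 8.25%, 8.83%, 10.8% and 12.7% did. In 564Igi the shares were 31.25%, 27.8%, 34.8% and 40.5% of double-beta cells. They were 7.77%, 7.85%, 10.4% and 13.3% of its single-beta cells. The share was thus higher in double-beta cells in each bin, with the smallest gap in the top WT bin. Among the cells with at least 10 beta UMIs, 1756 in WT and 2354 in 564Igi, 7.63% and 11.3% were double-beta cells. This selection raised the shares by its construction, because the UMIs of all betas of a cell were summed. It kept 134 of 143 double-beta and 1622 of 2825 single-beta cells in WT, and 266 of 288 and 2088 of 3878 in 564Igi, and 33 WT and 69 564Igi members passed with a first beta under 10 UMIs. Drawing each kept cell down to 10 beta UMIs lowered the shares to 7.19% and 10.6%, with 1212 WT and 1812 564Igi cells left out. The difference between the mice was 3.67 points among the kept cells and 3.41 points after drawing, and neither can be set against the 2.10 points over all cells.

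The second beta is by definition the one with no more UMIs than the first. It had a median of 7 UMIs (quartiles 5 and 10, range 2 to 34) in WT and 6 (5 and 9, range 2 to 25) in 564Igi. Its UMIs were a median of 60.0% (45.5 and 77.8) of those of the first beta in WT and 54.5% (42.6 and 67.2) in 564Igi. They reached at least 50% of the first in 104 WT cells, 72.7% (64.7 to 79.8), and in 187 564Igi cells, 64.9% (59.1 to 70.4). Betas of any 2 single-beta cells, at 20% or more as the weaker of the 2, had a median of 57.1% in each mouse, with 62.3% and 61.8% of pairs at 50% or more. Second alphas of single-beta cells, which the rule did not choose, had a median of 66.7% of the first in WT and 63.6% in 564Igi. These alphas met the same flag and minimum of 2 UMIs. Alphas had few UMIs, with a median of 4 in single-beta cells with exactly 1 alpha in each mouse. A second alpha of at least 2 UMIs beside a first of 4 or fewer reaches 50% by construction. The alpha medians are therefore not a like reference for the betas. The members' median thus lay above that of pairs of cells in WT and below it in 564Igi, and its order-statistic interval, 54.5% to 64.7% in WT and 50% to 57.1% in 564Igi, reached it in both. The share at 50% or more lay above that of pairs in WT, whose 62.3% is below the interval of 64.7% to 79.8%, and its interval took in the reference in 564Igi. No second beta of a member had under 20% of the UMIs of the first. Without the deposited confidence flag, and at the same minimum of 2 UMIs, 11 of 154 WT and 37 of 326 564Igi cells with 2 betas had such a second beta. With single UMIs admitted as well, the numbers were 31 of 183 and 73 of 382.

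**Figure D3:**
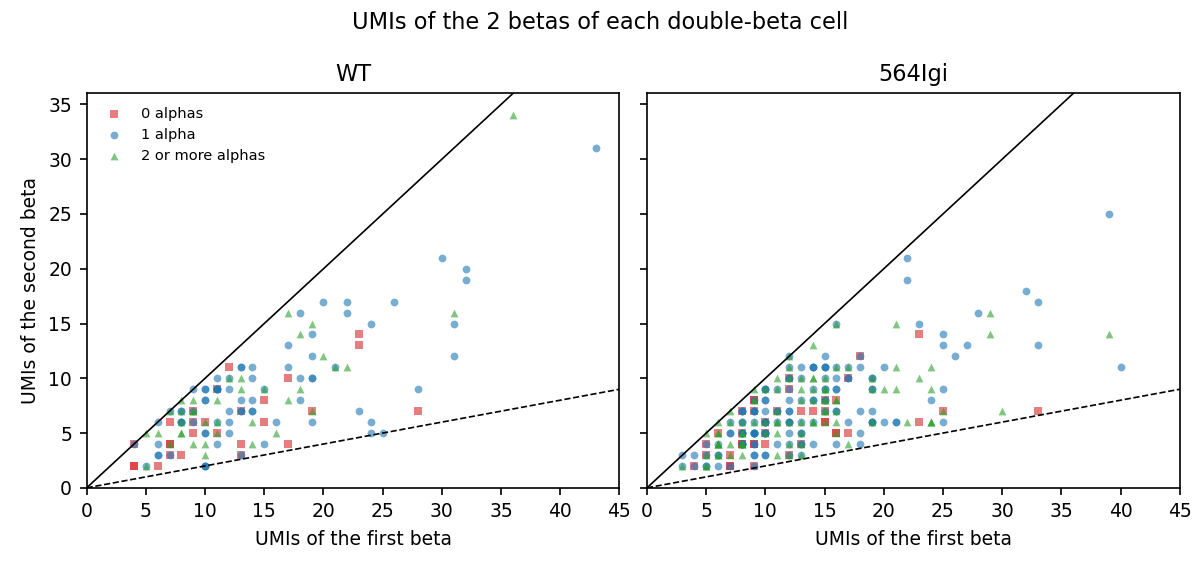
UMIs of the second beta against UMIs of the first beta in each of the 143 WT (left) and 288 564Igi (right) double-beta cells, with squares for no alpha, circles for 1 and triangles for 2 or more alphas. The solid line marks equal UMIs and the dashed line 20%, and no cell lies under the dashed line.

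The intervals of the median balance overlapped whichever number of alphas the cell had. In WT the second beta had a median of 62.5% of the first in cells with 1 alpha, 61.3% with 2 or more and 53.8% with none. In 564Igi the medians were 56.1%, 53.3% and 50%. Reads per UMI had medians of 261 for the second and 275 for the first beta in WT and 249 and 244 in 564Igi.

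The 2 leading betas of a cell never carried the same TRBV name, in any of the 143 WT or the 288 564Igi members. Beside these counts of 0, 3 cells would make shares of 2.10% and 1.04%. Betas of any 2 single-beta cells carried the same name in 5.53% of pairs in WT and 5.60% in 564Igi, which would be 7.91 and 16.1 cells. The exact intervals of the members, up to 2.55% and 1.27%, lay below these references. The gap was also seen in cells with 1 alpha, 0 of 78 and 0 of 152. Cells with 2 or more alphas had 0 of 38 in WT and 0 of 95 in 564Igi. The interval of the WT count, up to 9.25%, takes in the reference. Some contigs carry the joint name TRBV12-2+TRBV13-2. When joint names were split and any name in common was counted, 0 WT cells and 1 564Igi cell shared a V, against 6.45% and 6.73% of pairs of cells.

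Among cells with 2 or more alphas, the 2 leading alphas had the same TRAV name in 0 of 334 in WT, with an interval of up to 1.10% that lies below the 1.97% of pairs of alphas from cells with 1. In 564Igi they did in 4 of 488, 0.820% (0.224 to 2.09), an interval that takes in the reference of 1.87%. Barcodes called as both B and T cell, which were left out of the members, had 1 of 19 in WT and 0 of 33 in 564Igi with 2 betas of the same V. With no confidence flag and single UMIs admitted, an alternative added after the data had been seen, 0 of 183 WT and 1 of 382 564Igi cells did. How the contig assembly treats 2 chains that begin with the same V was not tested.

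For J segments the intervals over all members took in the reference. Both betas used the same TRBJ in 13 WT members, 9.09% (4.93 to 15.04), and in 36 564Igi members, 12.5% (8.91 to 16.9), against 10.7% of pairs of single-beta cells in each mouse. By number of alphas, 5 of 78 WT members with 1, 6.41% (2.11 to 14.3), and 5 of 38 with 2 or more, 13.2% (4.41 to 28.1), used the same TRBJ. In 564Igi 15 of 152 members with 1 alpha did, 9.87% (5.63 to 15.8), and 18 of 95 with 2 or more, 18.9% (11.6 to 28.3), the one interval of these that lay above the reference. Each Trb copy holds 2 clusters of D, J and constant segments, with TRBJ1 genes before TRBC1 and TRBJ2 genes before TRBC2. Both betas used the same cluster in 52.4% (43.9 to 60.9) and 56.6% (50.7 to 62.4) of members, against 54.8% and 54.1% of pairs. In WT 27 cells had 2 TRBJ1 betas, 48 had 2 TRBJ2 betas and 68 had 1 of each, and in 564Igi the numbers were 36, 127 and 125. The deposited constant gene is TRBC1 for 289 of 289 WT and 589 of 589 564Igi betas of members, including those with TRBJ2. It is TRBC1 for 2819 of 2825 and 3876 of 3878 betas of single-beta cells too. The clusters can thus be read from the J names only.

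**Figure D4:**
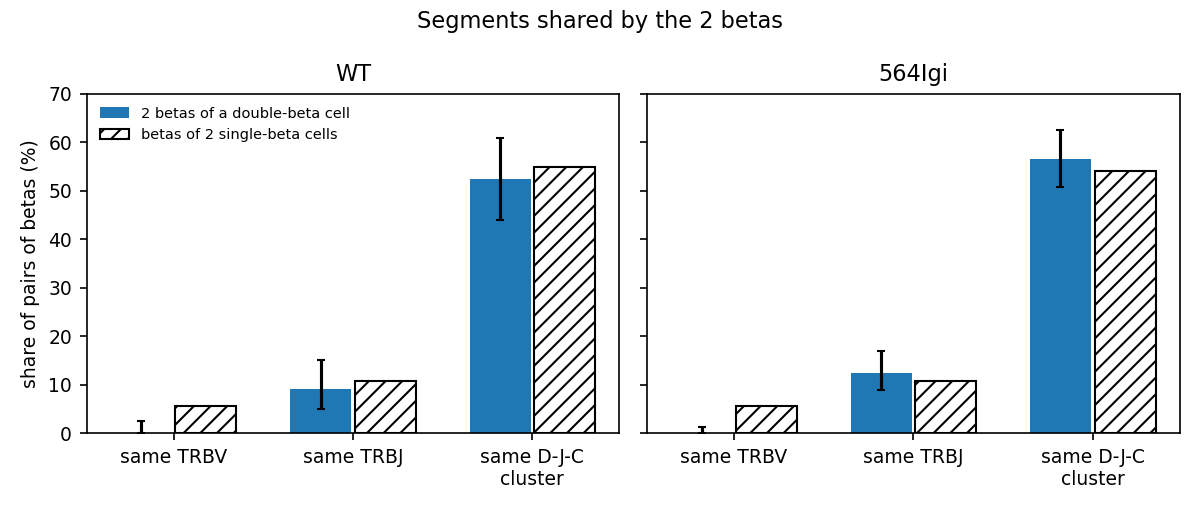
Share, in percent, of double-beta cells whose 2 leading betas have the same TRBV name, the same TRBJ gene or the same D-J-C cluster (blue, exact 95% binomial intervals), beside the share among betas of any 2 single-beta cells (hatched), in WT (left) and 564Igi (right). The blue bar for TRBV is at 0 in both mice, against hatched bars at 5.53% and 5.60%.

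For the use of single genes, those with at least 10 chains in either class were compared, and a gene was named as differing when its exact intervals in double-beta and single-beta cells of a mouse did not overlap. In WT this held for 0 of 21 TRBV genes (0% higher, 0% lower). In 564Igi it held for 1 of 22 (4.55% higher, 0% lower), TRBV20, a segment at chromosome 6, 41188273 to 41188977 in GRCm38. TRBV20 was used by 45 of 589 betas of 564Igi members, 7.64% (5.63 to 10.1), and by 3.17% (2.64 to 3.77) of single-beta cells, a difference of 4.47 points (2.37 to 6.97). In WT TRBV20 made up 5.88% (3.46 to 9.25) and 4% (3.31 to 4.79), with intervals that overlap. Its 564Igi intervals stayed apart in each alternative run, at differences of 3.35 to 7.41 points. With each recurring set of betas counted once it made up 7.40% of the members' betas. TRBV15 in WT lay just outside the naming rule, at 6.57% (4.004 to 10.1) against 3.398% (2.76 to 4.13). It passed the rule in 5 of the alternatives. Other unnamed TRBV genes also had an interval of the difference that excludes 0. TRBV13-1 was lower in both mice, with differences of -3.08 points (-5.01 to -0.232) in WT and -2.37 (-4.03 to -0.302) in 564Igi. TRBV2 was lower in WT, and in 564Igi TRBV12-1 was higher and TRBV12-2+TRBV13-2 lower. These genes are given here after their values were seen.

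The V genes used most by members were TRBV5, TRBV31, TRBV16, TRBV19 and TRBV12-2+TRBV13-2 in WT. TRBV5 made up 8.30% of their betas against 7.15% in single-beta cells, TRBV31, TRBV16 and TRBV19 each 7.61% against 5.38%, 6.34% and 7.12%, and the joint name 6.92% against 7.86%. In 564Igi they were TRBV20, then TRBV5 and TRBV12-1 at 7.13% each, TRBV3 at 6.96% and TRBV31 at 6.62%, against 6.21%, 4.93%, 8.87% and 5.11% in single-beta cells. TRBV31 lies beyond TRBC2, at 41557693 to 41558371 on chromosome 6, and joins by inversion. Its share was above that of single-beta cells in both mice by less than the intervals, at 7.61% (4.83 to 11.3) and 6.62% (4.75 to 8.94) of the members' betas. When the weaker betas alone were counted, 4 TRBV genes were named in 564Igi, with TRBV12-1 (9.30% against 4.93%), TRBV2 (7.97% against 4.36%) and TRBV20 (7.31% against 3.17%) higher and TRBV13-1 (1.99% against 6.45%) lower, and 0 in WT.

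**Figure D5:**
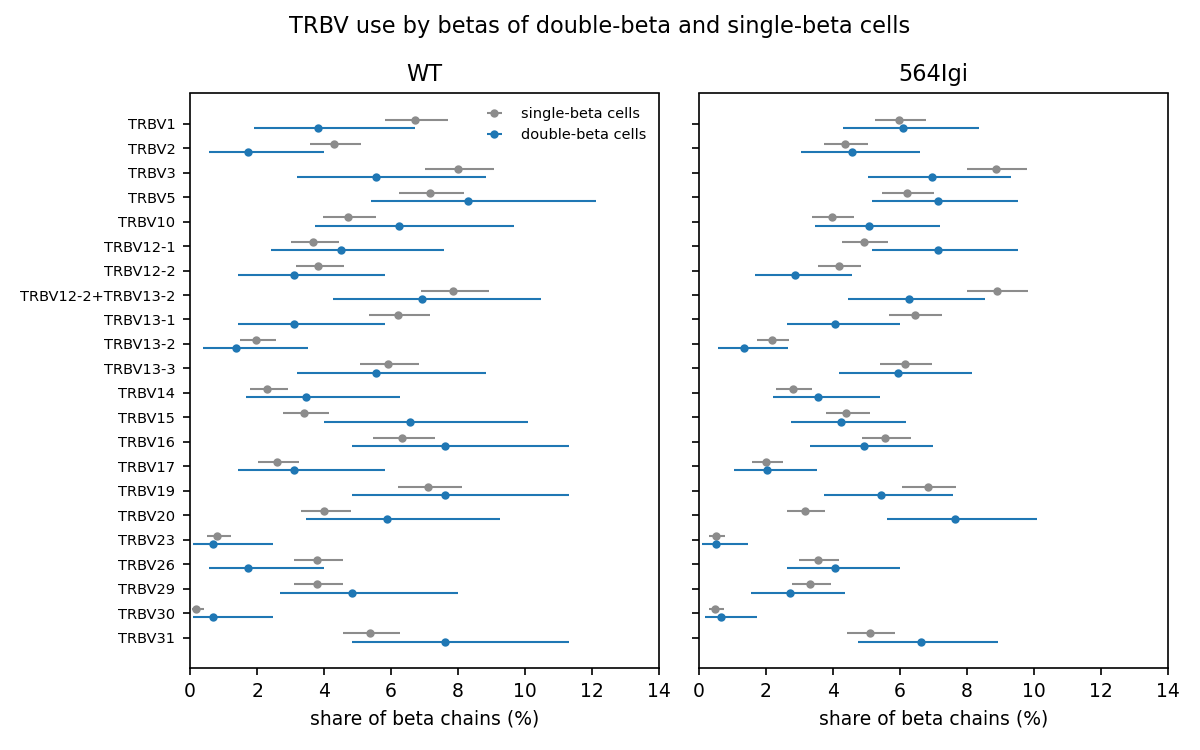
Share of beta chains, in percent, that use each TRBV gene in WT (left) and 564Igi (right), for betas of single-beta cells (grey) and of double-beta cells (blue), with exact 95% binomial intervals. TRBV20 in 564Igi, at 7.64% against 3.17%, is the gene whose intervals do not overlap.

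Among J segments 3 of 12 were named in WT (8.33% higher, 16.7% lower) and 0 of 12 in 564Igi (0% higher, 0% lower). TRBJ1-6, the last functional J of the first cluster (chromosome 6, 41535554 to 41535606), made up 6.92% (4.28 to 10.5) of the betas of WT members and 2.73% (2.16 to 3.39) of single-beta cells, a difference of 4.19 points (1.47 to 7.81). TRBJ2-7, the last J of the second cluster (41543810 to 41543856), was lower, at 12.5% (8.88 to 16.8) against 19.9% (18.4 to 21.4), and TRBJ2-4 (41543362 to 41543410) was lower, at 4.50% (2.42 to 7.57) against 8.78% (7.76 to 9.88). TRBJ1 genes as a whole made up 42.2% (36.5 to 48.1) of WT member betas against 34.5% (32.8 to 36.3) in single-beta cells. The 564Igi members did not show this, with TRBJ1-6 at 4.41% against 2.86%, TRBJ2-7 at 20.03% against 19.2%, TRBJ2-4 at 9.51% against 8.84% and TRBJ1 genes at 34.3% (30.5 to 38.3) against 35.6%. In WT TRBJ1-6 was also named when the weaker betas alone were counted (7.53%), and TRBJ2-7 and TRBJ2-4 were not. TRBJ2-4 was not named at a minimum of 5 UMIs, without the confidence flag, or where the second beta had at least 50% of the first either. With every barcode that had a contig in the B cell table left out, TRBJ2-7 in 564Igi was lower by -7.30 points (-12.01 to -1.52), with exact intervals that still overlapped.

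Some pairs of betas were found together in more than 1 barcode. There were 2 such pairs in WT, covering 4 cells or 2.80% (0.767 to 7.01) of members, and 4 in 564Igi, covering 9 cells or 3.13% (1.44 to 5.85). In 5 of the 6 the cells also shared every alpha that was read, and in the sixth, WT pair 2, 1 of the 2 cells had no alpha. Sharing an alpha was also the usual state of single-beta cells with the same beta. Where both of 2 such cells had an alpha, they shared 1 in 55 of 58 pairs of cells in WT, 94.8% (85.6 to 98.9). In 564Igi they did in 33 of 41, 80.5% (65.1 to 91.2). The barcodes within a pair differed at 10 to 14 of their bases, so they were not near copies of each other. Unlike barcodes do not show that the contents came from separate droplets, which was not tested. WT pair 1 joined 2 betas to 1 alpha in 2 cells, with 4 and 8 UMIs on the TRBV16 beta, 15 and 7 on the TRBV15 beta and 7 and 8 on the alpha. The 564Igi pair 1 had the same complement of 2 betas and 1 alpha in 3 cells, with 19, 9 and 7 UMIs on the TRBV13-3 beta, 22, 15 and 16 on the TRBV20 beta and 16, 16 and 10 on the alpha. The 2 betas thus came with the same alpha in separate barcodes. The 564Igi pairs 2 and 4 carried 2 shared alphas in both of their cells. In 564Igi pair 3 both cells shared 3 alphas and 2 betas, with 2 to 9 UMIs on each chain, which is more alphas than 1 diploid cell can encode. Capitals are as above for the betas, and the alphas are in lower case.
WT pair 1, beta, TRBV16 to TRBJ2-3: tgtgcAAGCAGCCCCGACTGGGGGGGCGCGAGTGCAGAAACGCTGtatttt
WT pair 1, beta, TRBV15 to TRBJ1-3: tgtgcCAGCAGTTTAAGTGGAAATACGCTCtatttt
WT pair 1, shared alpha, TRAV8-1 to TRAJ17: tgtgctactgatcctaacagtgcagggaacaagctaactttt
WT pair 2, beta, TRBV5 to TRBJ1-1: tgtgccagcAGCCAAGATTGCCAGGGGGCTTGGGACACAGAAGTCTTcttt
WT pair 2, beta, TRBV12-2+TRBV13-2 to TRBJ2-2: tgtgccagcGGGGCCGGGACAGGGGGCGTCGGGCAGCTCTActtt
564Igi pair 1, beta, TRBV13-3 to TRBJ2-2: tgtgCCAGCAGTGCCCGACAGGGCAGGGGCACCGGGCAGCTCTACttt
564Igi pair 1, beta, TRBV20 to TRBJ2-3: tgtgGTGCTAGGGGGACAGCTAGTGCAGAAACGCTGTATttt
564Igi pair 1, shared alpha, TRAV4D-4 to TRAJ48: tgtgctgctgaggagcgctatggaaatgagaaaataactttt
564Igi pair 2, beta, TRBV10 to TRBJ2-1: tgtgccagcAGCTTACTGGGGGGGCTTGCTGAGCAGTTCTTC
564Igi pair 2, beta, TRBV12-2+TRBV13-2 to TRBJ2-4: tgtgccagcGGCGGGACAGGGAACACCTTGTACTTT
564Igi pair 3, beta, TRBV3 to TRBJ2-1: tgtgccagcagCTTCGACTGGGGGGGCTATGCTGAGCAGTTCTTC
564Igi pair 3, beta, TRBV26 to TRBJ1-3: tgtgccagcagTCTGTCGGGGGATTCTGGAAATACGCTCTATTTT
564Igi pair 3, shared alpha, TRAV13D-2 to TRAJ31: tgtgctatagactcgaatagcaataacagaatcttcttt
564Igi pair 3, shared alpha, TRAV12-2 to TRAJ34: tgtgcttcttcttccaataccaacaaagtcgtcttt
564Igi pair 3, shared alpha, TRAV9-2 to TRAJ31: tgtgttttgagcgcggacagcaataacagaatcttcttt
564Igi pair 4, beta, TRBV14 to TRBJ2-7: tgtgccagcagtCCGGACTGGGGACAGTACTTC
564Igi pair 4, beta, TRBV13-3 to TRBJ1-6: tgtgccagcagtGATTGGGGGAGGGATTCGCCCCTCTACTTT

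Few betas of members were found in single-beta cells. The first beta was also the beta of a single-beta cell for 0 WT and 3 564Igi members, and the second beta for 1 and 2. A beta was found in another cell of any kind for 5 WT members, 3.50% (1.14 to 7.97), and 17 564Igi members, 5.90% (3.48 to 9.28), against 2.94% (2.35 to 3.63) and 2.06% (1.64 to 2.56) of single-beta cells. A member counted if either of its 2 leading betas recurred, while a single-beta cell has 1 beta to match, so these shares are not alike. The members counted include the 4 WT and 9 564Igi cells of the recurring pairs. Across the mice, 2 of 289 WT and 3 of 589 564Igi betas of members had a CDR3 nucleotide sequence found in a T cell of the other mouse. These are 0.692% (0.0839 to 2.48) and 0.509% (0.105 to 1.48). Of the betas of single-beta cells 16 of 2825, 0.566%, and 14 of 3878, 0.361%, did, within those intervals.

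Other contigs of the beta locus were read in both classes, with overlapping intervals. Whether those without a V gene come from rearranged copies of the locus was not tested. Nonproductive contigs with a V gene were read in 1 WT member and 3 564Igi members, 0.699% (0.0177 to 3.83) and 1.04% (0.215 to 3.01), against 1.38% (0.983 to 1.88) and 1.01% (0.716 to 1.37) of single-beta cells. Contigs without a V gene, whose J was that of none of the cell's betas, were read in 62 WT members, 43.4% (35.1 to 51.9), and 104 564Igi members, 36.1% (30.6 to 42.0), against 42.8% and 40.4% of single-beta cells. The invariant alpha of NKT cells, TRAV11 with TRAJ18, was carried by 2 WT and 6 564Igi members, 1.40% (0.170 to 4.96) and 2.08% (0.768 to 4.48), against 0.991% and 1.39% of single-beta cells.

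Barcodes called in both tables may reflect shared droplets, but whether each held a B and a T cell was not tested. Barcodes not called as B cells could also hold productive immunoglobulin contigs. These were read in 1.42% of WT and 15.1% of 564Igi single-beta cells, so the calls may not mean the same in the 2 mice. Barcodes called in both tables numbered 345 in WT, beside 3263 T and 6513 B cells called in 1 table only, and 373 in 564Igi, beside 4573 and 3827. If B and T cells entered droplets at random and each such barcode held 1 of each, these numbers correspond to 86.4 droplets with 2 T cells in WT and 223 in 564Igi, or 71.5 and 185 in which both cells would show a beta. The members numbered 143 and 288. Of the barcodes called in both tables that had a beta, 19 of 306 in WT, 6.21% (3.78 to 9.53), and 33 of 355 in 564Igi, 9.30% (6.49 to 12.8), had 2 or more. In these barcodes 3 of 19 and 18 of 33 had 2 or more alphas, 15.8% (3.38 to 39.6) and 54.5% (36.4 to 71.9), beside 26.6% and 33.0% of the members. The part of shared droplets in the members was not tested.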

How the data were processed

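Single-cell 5′ V(D)J libraries of 2 mice were used, 4 tables in all. The deposited tables list assembled contigs with raw counts of reads and UMIs, which the authors did not normalize, per the file headers, and contig lengths, which were not used. Cell Ranger 3.0.2 and mm10 are named in the submitters' processing notes, without a role. The sources used here do not say how the cell, confidence and productive flags were set. Gene positions come from RefSeq on GRCm38.p6, where 35 of 36 receptor gene names matched by symbol. RefSeq lists TRBV10 and TRBV29 as V segment pseudogenes, and contigs of these names were counted where they were flagged productive.

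T cells and chains were chosen as the report describes. Of the filtered contigs, 24 WT and 24 564Igi ones named Multi were left out, and no doublet caller was run. The first beta had most UMIs. The reference values for 2 single-beta cells were computed over all pairs, with no draws, and the drawing to 10 UMIs by the exact hypergeometric expectation. Intervals of shares (95%) are Clopper-Pearson's, those of differences combine these by Newcombe's method, and beside a count of 0 stands the share 3 counts would make. With 1 mouse per group no p-value was computed.

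Named genes were the 5 TRBV genes most used by members in each mouse, TRBV31, both TRBJ clusters, and every TRBV or TRBJ gene with at least 10 chains in a class and intervals that did not overlap. Cells printed had the most UMIs on the second beta, and of 2 such cells with 2 alphas in each mouse the leading one is shown. Members, lists and comparisons were chosen with earlier results of these data known. The counting was tested on simulated data. Tables were read with pandas 2.3.3 in Python 3.11.15, intervals came from SciPy 1.17.1, arrays were held in NumPy 2.4.6, and matplotlib 3.10.9 drew the plots.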

Additional observations from a re-analysis of the deposited data

How the results depend on the processing

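With 1 mouse per group, leaving out a replicate was not possible. No paired analysis was possible because each group has 1 mouse. Of the values recomputed for the main comparisons, 174 stayed within their interval (for counts of genes, within 1.5 times) and 33 moved, and the double-beta share was higher in 564Igi throughout. At a minimum of 5 UMIs the share with 2 or more alphas was 10.5% (double-beta) and 3.21% (single-beta) in WT and 6.88% and 3.04% in 564Igi, the 564Igi double-beta share was 5.99%, its median balance 58.8%, and 1 TRBV gene was named in WT. Keeping barcodes called in both tables named 2 TRBV genes in WT. Leaving out every barcode with a contig in the B cell table gave 564Igi a double-beta share of 5.28%, 21.9% of members with 2 or more alphas, a balance of 57.2% and 2 named TRBV genes, and a difference between the mice of 0.838 points. Without the confidence flag the 564Igi share was 7.83%. Leaving out cells with more than 2 chains of a kind gave 27.5% with 2 or more alphas and 2 TRBV genes in 564Igi, and 1 TRBV gene in WT. Requiring a second beta at 50% or more of the first gave shares of 3.50% in WT and 4.49% in 564Igi and named 1 TRBV gene in WT, and counting cells with alpha and beta alone gave 7.81% in 564Igi and named 2 in WT. The second beta alone named 1 TRBJ gene in WT and 4 TRBV genes in 564Igi. With no flag and 1 UMI, chosen after seeing the data, the shares were 6.07% and 9.04%, single-beta cells with 2 or more alphas 12.96% and 12.6%, the balance 52.6% and 46.7%, and the named TRBV genes 1 and 2. Keeping cells with 10 beta UMIs raised the shares to 7.63% and 11.3% (difference 3.67 points), and drawing these to 10 lowered them to 7.19% and 10.6% (difference 3.41 points). The cause of the other changes was not tested. Counting each set of betas once, also chosen after seeing the data, moved none of these values. Alphas, at a median of 3 UMIs in single-beta cells, limit what depth can show.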
